A study of Mus musculus with 2 samples.

Results

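The 9 genes followed here carry the signals that steer pigment cells and the proteins with which those cells make melanin: agouti (symbol a in the matrices), Mc1r, Kitl, Kit, Edn3, Dct, Tyr, Tyrp1 and Pmel. They were taken by symbol from the 33904 genes of the count matrices, and all 9 were found once. The members were selected on their levels in these libraries, which had been seen beforehand, so every difference between the libraries below is a description and carries no test. Dorsal skin was profiled by droplet single-cell RNA-seq in 2 libraries, 1 of control mice (Ctrl) and 1 of mice with MC903-induced dermatitis (AD), both taken at day 10. The mice were female C57BL/6J, 7 weeks old, and hair had been removed with Nair cream 24 h before the first application. Ctrl skin received 100% ethanol daily, and AD skin received 4.5 nmol of MC903 per application, also in 100% ethanol. MC903 is an analogue of vitamin D also known as calcipotriol. The number of mice behind each library is not given in the sources used here. With 1 library per condition, the condition cannot be told apart from the library, and 95% intervals (exact Poisson for levels, exact Clopper-Pearson for shares) cover the error of counting alone.

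Agouti is a secreted antagonist that keeps melanocortin from Mc1r, the receptor with which melanocytes switch to black pigment, and it is made by mesenchymal cells of the hair follicle. C57BL/6J mice carry the nonagouti allele and have a black coat, so agouti UMIs here come from that allele. Kitl is the ligand of the receptor Kit and supports melanocytes as well as mast cells, and Edn3 acts on melanocytes through the receptor Ednrb. Tyr, Tyrp1 and Dct are the enzymes of melanin synthesis, and Pmel forms the fibrils on which melanin settles. Follicle melanocytes make pigment in anagen, the growth phase of the hair cycle, when the follicle has a dividing matrix, an inner sheath, a shaft and an active dermal papilla.

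On GRCm38 (GENCODE M21), agouti lies at chr2:154791402-155051012, Mc1r at chr8:123407107-123410744, Kitl at chr10:100015630-100100416, Kit at chr5:75574916-75656722, Edn3 at chr2:174760619-174784042, Tyrp1 at chr4:80834123-80851719 and Pmel at chr10:128704195-128720238, each on the forward strand. Dct (chr14:118012790-118052244) and Tyr (chr7:87424771-87493512) lie on the reverse strand. Promoter sequences (250 bases upstream of the start, RefSeq on GRCm38.p6) were at hand for 8 of the 9 genes, all but Pmel. They were searched for TCATGTG on either strand, the M-box bound by Mitf, the main transcription factor of melanocytes. The motif was present in 4 of the 8, Mc1r, Dct, Tyr and Tyrp1, and in 1068 of all 32851 promoters (3.25%). These 4 are shown because most of their Ctrl UMIs lay in melanocytes, with the motif in capitals, 5′ to 3′ on the strand of the gene. The Mc1r stretch is chr8:123406832-123407081, the Dct stretch chr14:118052247-118052496 (reverse strand), the Tyr stretch chr7:87493513-87493762 (reverse strand) and the Tyrp1 stretch chr4:80833963-80834212.
Mc1r: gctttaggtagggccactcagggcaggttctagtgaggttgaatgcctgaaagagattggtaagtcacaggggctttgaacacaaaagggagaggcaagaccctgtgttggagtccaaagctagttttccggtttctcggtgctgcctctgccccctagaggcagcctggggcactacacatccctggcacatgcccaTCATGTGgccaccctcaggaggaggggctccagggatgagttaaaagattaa
Dct: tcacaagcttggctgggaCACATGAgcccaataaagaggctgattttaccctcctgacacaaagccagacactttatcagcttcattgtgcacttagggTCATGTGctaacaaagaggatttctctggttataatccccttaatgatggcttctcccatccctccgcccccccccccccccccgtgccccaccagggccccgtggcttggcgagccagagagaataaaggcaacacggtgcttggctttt
Tyr: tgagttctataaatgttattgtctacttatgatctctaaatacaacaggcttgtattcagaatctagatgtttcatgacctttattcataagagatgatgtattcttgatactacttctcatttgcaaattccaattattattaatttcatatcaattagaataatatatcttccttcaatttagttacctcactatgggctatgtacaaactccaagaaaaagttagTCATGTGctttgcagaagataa
Tyrp1: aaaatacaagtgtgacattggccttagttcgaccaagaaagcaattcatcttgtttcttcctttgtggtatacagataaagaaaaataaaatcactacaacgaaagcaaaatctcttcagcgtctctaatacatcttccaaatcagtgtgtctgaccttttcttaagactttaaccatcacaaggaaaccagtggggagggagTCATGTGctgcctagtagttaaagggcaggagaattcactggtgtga
From the motif to the RefSeq start lay 45 bases in Mc1r, 15 in Tyr and 40 in Tyrp1. Dct held 2 copies, the nearer 144 bases from the RefSeq start. These starts can differ from the GENCODE coordinates above. In Tyrp1 the motif lies inside the GENCODE span, and so does the whole agouti window (chr2:155013320-155013569). Agouti, Kitl and Edn3, which are read mainly in other cells, had no match in this window. Kit had none either, though melanocytes held 30.8% of its Ctrl UMIs and mast cells 27.7%. A match of letters is a description and shows no binding.

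The filter of the study's methods (200 to 6000 genes, at most 10% mitochondrial UMIs) kept 11399 Ctrl cells (median 7813 UMIs) and 8179 AD cells (median 6330 UMIs), and 29 of their barcodes occur in both libraries. Cells were clustered jointly, with the 9 genes left out of the clustering, and clusters were named from marker lists, so each class name below stands for cells like that type. Fibroblasts (dFBs) numbered 4333 in Ctrl and 5479 in AD, keratinocytes (KCs) 1408 and 411, mast cells 138 and 46, and melanocytes 67 and 113. The melanocyte name rests on the joint cluster 25, since its AD cells carried the markers of the class weakly and no such cluster formed when the AD library was clustered alone, so AD melanocytes below are the AD cells of that cluster. Cells of the growing follicle came almost wholly from Ctrl. The dermal papilla cluster held 744 Ctrl cells and 1 AD cell, the dermal sheath 883 and 6, and the cluster of hair matrix, inner sheath and shaft cells 858 and 2. No level of the AD library is given for these classes. The dFB clusters hardly mixed between the libraries either, with clusters 0, 2 and 10 from Ctrl and clusters 1, 3, 4, 5 and 11 from AD. The barcodes that the filter removed held 39.3% of the agouti UMIs of Ctrl and 38.2% of those of AD, and 37.2% and 2.48% of the Dct UMIs.

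**Figure D1:**
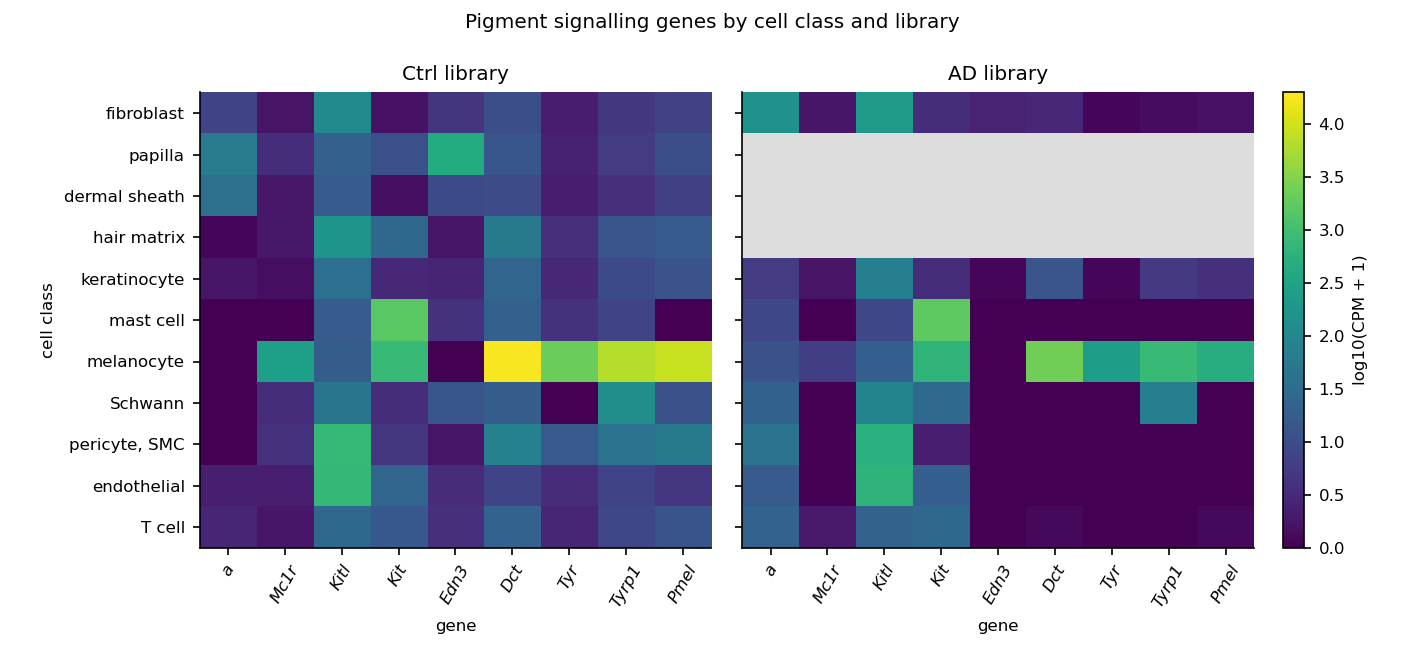
Level of each of the 9 genes (columns) in 11 cell classes (rows) of the Ctrl library (left) and the AD library (right), as log10(CPM + 1) of the UMIs summed over the cells of a class, with grey for classes under 20 cells. Agouti is brightest in papilla and sheath in Ctrl and in fibroblasts in AD, and the 4 pigment genes are brightest in melanocytes of both libraries, at lower levels in AD.

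Genes of the hair cycle set the frame. In the Ctrl hair matrix, the inner sheath keratins Krt28, Krt25, Krt71 and Krt27 stood at 253, 185, 102 and 68.1 CPM (UMIs of the gene per 1e+06 UMIs of the class), and the shaft keratin Krt35 at 66.7 CPM. Shh, the morphogen of the matrix, stood at 45.2 CPM, and Mki67, a gene of dividing cells, was found in 93.7% of these cells. Across all epithelial cells (KCs and hair matrix together), Krt25 had 2423 UMIs in Ctrl and 0 in AD, Krt35 878 and 0, and Krt28 3352 and 11. A gene was called higher or lower when the libraries differed at least 2-fold, with at least 20 CPM and 30 UMIs in either. By that rule 11% of 7112 genes were called lower in the AD epithelium and 5.86% higher. Of 21 genes of the inner sheath and shaft, 7 could be called and 5 of these were lower, all 5 past the minimum in Ctrl alone. Of the genes of matrix signalling 7 of 8 were lower, 6 of them past the minimum in Ctrl alone. Of the proliferation genes 10 of 11 were lower, 8 of them past it in Ctrl alone. A gene that passes in Ctrl alone tends to be lower by that choice, so these counts lend no support. Lower and past it in both libraries were Hoxc13 of the matrix, at 55.0 CPM in Ctrl against 25.1 in AD, and 2 genes of dividing cells. These were Mki67 (494 and 59.4 CPM) and Top2a (349 and 28.6 CPM). Also past it in both, but within 2-fold, were Ovol1 of the matrix (65.4 and 38.5 CPM) and Pcna of dividing cells (248 and 154 CPM). The same held for 2 genes of the inner sheath and shaft. Among 8 genes of follicle stem cells, Lhx2 was lower (183 and 84.4 CPM), Nfatc1 was higher (28.8 and 59.0 CPM) and Krt15 was within 2-fold (652 and 803 CPM). In KCs without the hair matrix, all 8 were within 2-fold, with Lhx2 at 92.9 and 84.5 CPM and Nfatc1 at 40.9 and 59.2 CPM. Cells that carry the genes of growing follicles were thus read in the Ctrl library and were nearly missing from the AD library. Fewer follicles in anagen and fewer of their cells recovered cannot be told apart here.

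Agouti was the member that stood highest in AD relative to Ctrl. Over all kept cells it had 1048 UMIs in Ctrl, or 9.96 CPM (9.37 to 10.6), and 6765 UMIs in AD, or 109.7 CPM. In Ctrl it was a gene of the follicle mesenchyme. Papilla cells stood highest at 61.3 CPM (54.9 to 68.1, 340 UMIs), with a UMI in 22.7% of cells, followed by the sheath cluster 7 at 39.7 CPM (363 UMIs) and the dividing sheath cluster 31 at 21.6 CPM (28 UMIs). Intervals of these 3 neighbours did not overlap. Ctrl dFBs had 262 UMIs, or 6.76 CPM (5.97 to 7.63), in 5.35% of cells, and 228 of these lay in dFB cluster 0. In AD dFBs agouti had 6356 UMIs, or 163 CPM (159 to 167), in 26.2% of cells. The AD level was 24.1-fold that of Ctrl (log2 4.59, 4.42 to 4.78). After thinning each cell to 1000 UMIs, 0.869% of Ctrl dFBs and 11.5% of AD dFBs held an agouti UMI. Among dFBs, agouti and Kitl passed the minimum for a call, agouti was called higher and Kitl was within 2-fold, against 9.56% of 6851 genes called higher and 11.1% called lower. Agouti passed that minimum through its AD level alone.

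The size of that ratio depends on where the line between dFBs and follicle mesenchyme is drawn. With dFBs, papilla and sheath pooled as mesenchyme, agouti had 993 Ctrl UMIs (18.1 CPM) against 6363 AD UMIs (163 CPM), a 9.0-fold difference (log2 3.17, 3.07 to 3.27). There, 3 members could be called. Agouti and Kitl were higher, against 7.79% of 7013 genes, and Edn3, which passed through its Ctrl level alone, was lower, against 12.9%. The median log2 ratio over all genes tested was −0.05.

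Within the AD library, 2 clusters held most agouti. Cluster 11, with 662 cells, had 3541 UMIs (429 CPM, 415 to 444), a UMI in 85.6% of its cells, and 52.3% of the agouti UMIs of the library. Positive cells held a median of 5 UMIs, and the highest held 29. Its leading genes were Tnc, Mmp3, Saa3 and Cpxm1, together with Grem1, an antagonist of BMPs. Cluster 5, with 869 cells, had 2096 UMIs (501 CPM, 479 to 523), a UMI in 62.5% of cells, and 31.0% of the UMIs. Its leading genes were Coch, Dkk2, Prlr, Rasd1, Lamc3 and Enpp2. These clusters held 4 and 17 Ctrl cells, so they may mark the library rather than a type. The other AD dFBs stood far lower, at 44.9 CPM in cluster 23, 44.4 CPM in cluster 1, 18.6 CPM in cluster 4 and 6.33 CPM in cluster 3. The intervals of clusters 23 and 1 overlapped. Without clusters 5 and 11, AD dFBs stood at 27.1 CPM, with a UMI in 8.23% of cells, and their log2 ratio over Ctrl came to 2.05. T cells, read further on as droplet background, stood at 21.4 CPM in AD (12.6 CPM without cluster 20) and 1.92 CPM in Ctrl. Cluster 3 lay below both AD values and cluster 4 between them. How much of the agouti in these other AD dFBs is background was not tested.

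Cluster 5 shared part of its profile with the papilla of Ctrl. Of 18 papilla genes, 14 stood at 20 CPM or more in cluster 5, against 17 in Ctrl papilla, 11 in Ctrl sheath, 6 in Ctrl dFBs, 4 in the other AD dFBs and 3 in cluster 11. The levels were mostly lower than in Ctrl papilla. Corin, a protease that limits agouti action, stood at 27.2 CPM in cluster 5 and 535 CPM in Ctrl papilla. Rspo3, an activator of Wnt signalling, stood at 94.6 and 1014 CPM, and Wif1, a Wnt inhibitor, at 192 and 1621 CPM. Prdm1 went the other way, at 312 and 168 CPM. Edn3 was at 1.0 CPM in cluster 5 against 449 CPM in Ctrl papilla, and Mki67 at 1.2 against 56.6 CPM. The class of cluster 5 also changed with the clustering. At a resolution of 0.5, 867 of its 869 AD cells fell in a papilla class, as did 838 with all barcodes. With stricter filters 750 fell among dFBs. At a resolution of 2, 314 fell in a sheath class and 555 were unnamed. With each library clustered alone, 395 fell in a sheath class, 447 were unnamed and 27 were dFBs. In the mesenchyme as a whole, 11 of 13 papilla genes past the minimum were lower in AD and 0 were higher, and 7 of the 11 passed in Ctrl alone.

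**Figure D2:**
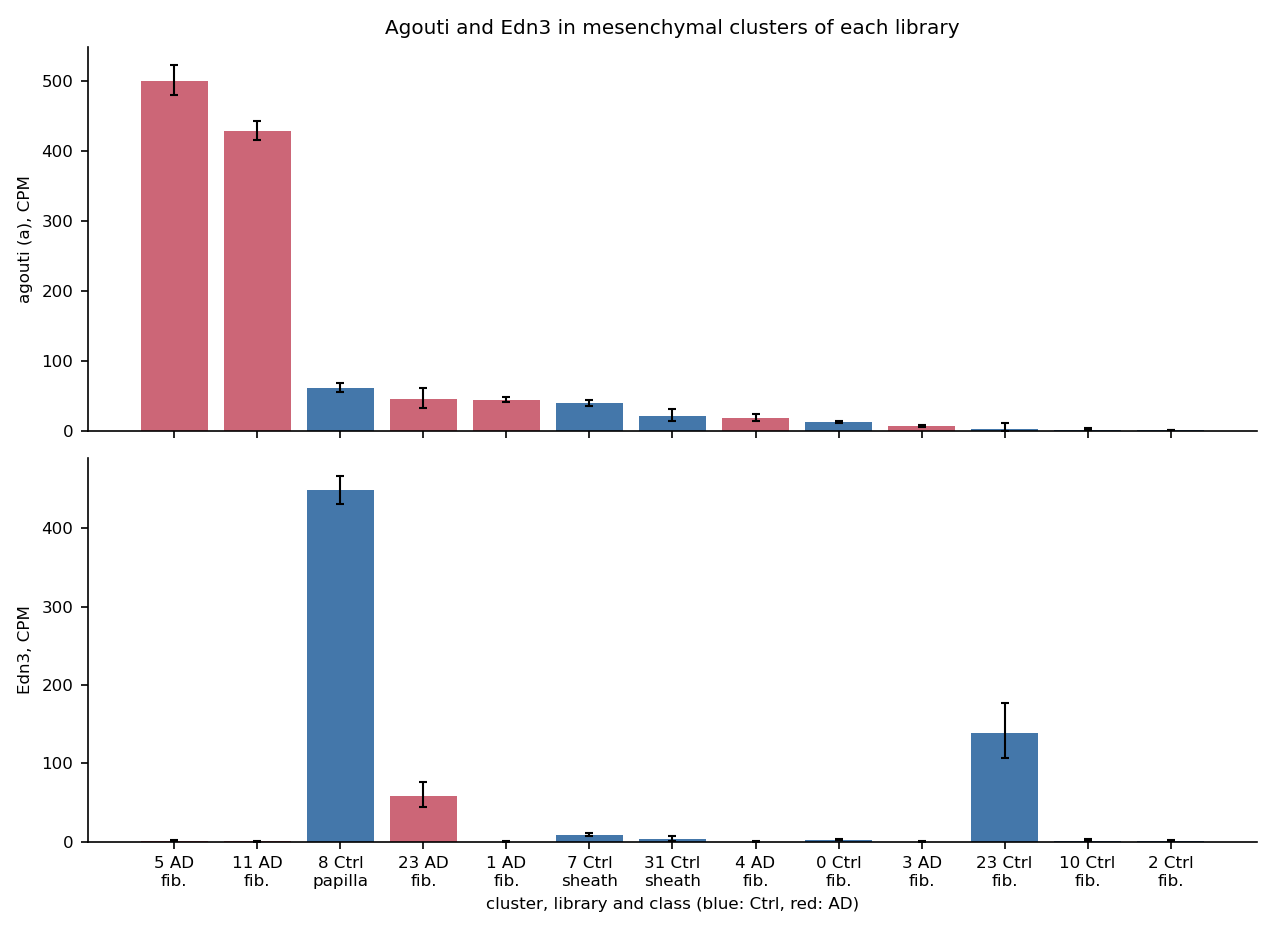
CPM of agouti (top) and Edn3 (bottom) in each mesenchymal cluster with at least 20 cells (x axis: cluster, library and class, blue for Ctrl and red for AD), with bars for summed UMIs and whiskers for 95% Poisson intervals. AD clusters 5 and 11 stand at 501 and 429 CPM of agouti, and Edn3 is highest in Ctrl papilla at 449 CPM.

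Outside the mesenchyme agouti stood lower, and a droplet background must be allowed for. T cells, which should not make agouti, had a UMI in 0.734% of cells in Ctrl and 5.79% in AD, at median depths of 3051 and 5232 UMIs, or 1.92 and 21.4 CPM. AD KCs, at 4.74 CPM and 3.89% of cells, were below that background. AD adipocytes had 75 UMIs (32.2 CPM, 25.3 to 40.4), which overlaps the T cell interval (17.1 to 26.5). Without cluster 20, which is taken up at the end of the paragraph, AD T cells had 38 UMIs (12.6 CPM, 8.95 to 17.4) and the adipocyte interval lay above theirs, in a comparison added after seeing the data. Ctrl hair matrix cells held 2 UMIs in all. Mast cells held 0 and 1 UMIs and melanocytes 0 and 4. AD pericytes and smooth muscle cells had 64 UMIs (42.4 CPM, 32.7 to 54.2) in 11.8% of cells, above the T cells, where Ctrl pericytes held 0 UMIs in 242 cells, which allows up to 2.27 CPM (3 counts). Within AD T cells, cluster 20 alone stood at 48.5 CPM (35.6 to 64.5), which overlaps the pericytes, and this cluster also carried dFB markers such as Col1a1 and Pdgfra.

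Neighbouring genes bear on the agouti counts. Raly lies on the same strand and shares 147 of the 1169 exon bases of agouti (12.6%), so reads there may be split between the genes. Raly did not follow agouti across classes. It stood at 88.1 CPM in Ctrl dFBs, 97.8 CPM in AD dFBs, 163 CPM in AD cluster 5, 83.5 CPM in AD cluster 11 and 180.2 CPM in Ctrl papilla. Gm14226, at chr2:155018266-155027104 on the same strand inside the span of agouti, shares no exon base with it and was singled out after its values were seen. Gm14226 had 2960 UMIs in Ctrl papilla (533 CPM, 514 to 553), in 28.2% of cells, and 0 UMIs in AD dFBs.

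The genes whose levels ran most like agouti over 47 units of cluster and library (Pearson correlation over units with at least 50 cells, 6401 genes, a description only) were Pappa2 (0.776), Ctsk (0.717) and Saa3 (0.700). Units of the same library share depth and background.

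Mc1r, the receptor that agouti blocks, was read in melanocytes of the Ctrl library. They held 180 of its 266 UMIs there (268 CPM, 230 to 310), in 38 of 67 cells. AD melanocytes held 2 UMIs (5.31 CPM, 0.643 to 19.2) in 2 of 113 cells, so that AD over Ctrl came to −5.66 (−8.72 to −3.78) on the log2 scale. Every other class with at least 20 cells stood at or below 3.03 CPM. On the other strand, 653 of its 3638 exon bases overlap Gm38092, and on its own strand Mc1r lies inside the span of Gm20388 and shares 0 exon bases with it. Neither of these genes was analysed here. Slc24a4 (0.986), Cpne4 (0.980) and Tspan10 (0.978) ran most like Mc1r over the 47 units.

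Other genes of melanocortin signalling were also read in the papilla class of Ctrl, with no count of cells that held them together with agouti. Corin stood there at 535 CPM, Mc5r, a further melanocortin receptor, at 169 CPM with a UMI in 34.7% of cells, and Atrn, the attractin that agouti also needs, at 109 CPM. In melanocytes Atrn stood at 90.9 CPM in Ctrl against 141 in AD, and Mgrn1, a ubiquitin ligase of the same pathway, at 46.2 and 29.2 CPM. Both were within 2-fold. Of the 11 genes of the melanocortin list, 3 passed the minimum in the mesenchyme, and 1 of these was lower in AD, past it in Ctrl alone.

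Edn3 was read mainly in the papilla of Ctrl. It had 2851 UMIs in Ctrl (27.1 CPM) and 69 in AD (1.12 CPM), and papilla cells held 2490 of the Ctrl UMIs (87.3%, 449 CPM, 431 to 467), with a UMI in 69.9% of cells. The T cell background was 10 UMIs in Ctrl and 0 in AD. The dermal sheath stood at 8.33 CPM. Cluster 23 was the only dFB cluster above 20 CPM in a library, at 139 CPM (107 to 177, 65 UMIs) in 79 Ctrl cells and 58.8 CPM (44.3 to 76.5, 55 UMIs) in 105 AD cells. It was led by Coch, Fmod, Aspn, Gldn, Tnmd and Crabp1 and held 79.7% of the Edn3 UMIs of AD. An unnamed cluster with haemoglobin and muscle genes, cluster 26, stood at 120.1 CPM in 85 Ctrl cells, with 42 UMIs. Over the whole mesenchyme, Edn3 stood at 49.6 CPM in Ctrl against 1.62 in AD (log2 −4.94, −5.32 to −4.58). With 1 AD cell in the papilla class, fewer papilla cells and less Edn3 per papilla cell cannot be told apart. That class rests on the clustering. At a resolution of 0.5, most AD cells of cluster 5, which held 4 Edn3 UMIs (1.0 CPM), fell in a papilla class. In cluster 23, present in both libraries, the AD level was below the Ctrl interval. Frem1 (0.782), Epha7 (0.780) and Unc5c (0.757) ran most like Edn3.

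Among the other endothelin genes, the receptor Ednrb stood at 491 CPM in the Ctrl dermal sheath, in 45.3% of cells. Outside melanocytes this was the highest of the classes read for this list, which left out vessel cells, macrophages and dendritic cells. In AD dFBs Ednrb stood at 34.7 CPM (1352 UMIs) against 2.68 in Ctrl dFBs (104 UMIs). It was called higher there and passed through AD alone (log2 3.69). The receptor Ednra stood at 122 CPM in Ctrl papilla and 107 CPM in Ctrl sheath. The processing enzyme Ece1 was at 145 and 109 CPM in Ctrl and AD dFBs, and the ligand Edn1 at 45.0 and 44.3 CPM. Of the 7 genes of the endothelin list, 4 passed the minimum in the mesenchyme, of which 2 were within 2-fold and 2 were lower in AD, Ednra (39.0 and 11.5 CPM) and Ednrb (97.1 and 35.8 CPM), so for Ednrb the direction turned when papilla and sheath were added to the dFBs.

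Kitl was read most in vessels. Pericytes and smooth muscle cells of Ctrl held 757 CPM (710.3 to 805), against 538 CPM (502 to 577) in AD, and endothelial cells 732 CPM (674 to 794) against 634 CPM (591 to 679). In Ctrl the order below these 2 overlapping neighbours was hair matrix (169 CPM, 162 to 177, in 59.3% of cells), dFBs (113 CPM, 109.8 to 117, in 41.1%), KCs (36.4 CPM, 33.9 to 39.0, in 23.1%), papilla (19.6 CPM, 16.1 to 23.7) and sheath (16.1 CPM, 13.7 to 18.7). The intervals of papilla and sheath overlapped. T cells, as background, had 27.4 CPM and a UMI in 5.66% of cells in Ctrl, and 22.4 CPM and 6.91% in AD, so the CPM of papilla and sheath was at or below it.

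In AD dFBs Kitl stood at 212 CPM (207 to 216, 8246 UMIs) in 49.0% of cells, 1.87-fold the Ctrl level (log2 0.90, 0.85 to 0.96). That is just short of a call, and the 2-fold line was passed with all barcodes (1.03), at resolutions of 0.5 (1.02) and 2 (1.01) and with classes from marker UMIs (1.05). The dFB clusters ran from 57.7 CPM (cluster 23) to 285 CPM (cluster 1) in AD and from 57.0 CPM (cluster 0) to 188 CPM (cluster 10) in Ctrl. The 2 AD clusters that held most agouti lay within that range, at 90.3 CPM (cluster 5) and 195 CPM (cluster 11). AD KCs held Kitl at 69.9 CPM (63.2 to 77.1), in 39.7% of cells, which is 1.92-fold the 36.4 CPM of Ctrl (log2 0.94, 0.76 to 1.12). Here too the line was passed as a mean over cells (1.05) and at a resolution of 2 (1.04). The libraries filled the KC clusters unequally. In cluster 12, led by Krt15, Ctrl cells held 105 CPM (95.8 to 115) of Kitl against 135 CPM (119.8 to 151) for AD cells. This cluster held 419 of 1408 Ctrl KCs and 223 of 411 AD KCs. In cluster 16 the levels were alike, at 31.8 CPM in 406 Ctrl cells and 32.0 CPM in 145 AD cells. Cluster 17 stood at 13.2 CPM in 489 Ctrl cells and 7.72 CPM (2 UMIs) in 40 AD cells. Cluster 29 stood at 2.63 CPM in 94 Ctrl cells. How much of the KC ratio comes from this unequal filling was not tested. With the hair matrix added, the epithelium as a whole stood at 86.7 CPM in Ctrl against 70.1 in AD, so the direction turned (log2 −0.31, −0.46 to −0.16).

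**Figure D3:**
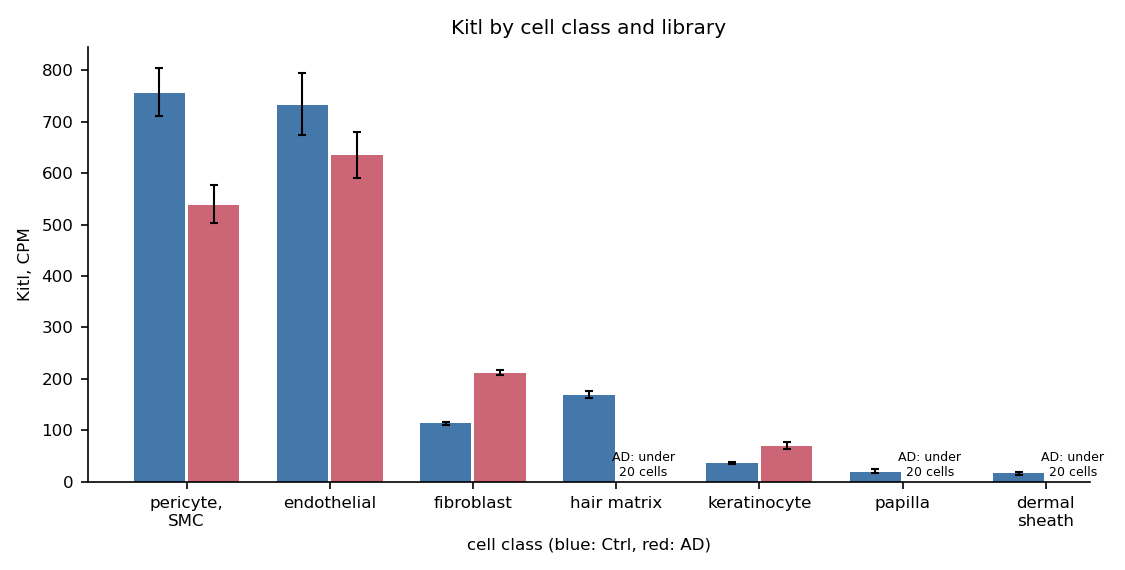
CPM of Kitl in 7 cell classes (x axis) of the Ctrl library (blue) and the AD library (red), with 95% Poisson intervals; classes with under 20 AD cells have no AD bar. Fibroblasts and keratinocytes stand higher in AD (212 against 113 CPM and 69.9 against 36.4 CPM), and pericytes lower (538 against 757 CPM).

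Among KCs, Kitl and Dct passed the minimum and neither was called, against 5.75% of 7009 genes called higher and 11.3% called lower. In the epithelium as a whole the same 2 genes passed and Dct was called lower, at 35.8 CPM in Ctrl against 12.8 in AD. It passed there through Ctrl alone, and the hair matrix share behind it is set against background further on. Adamts1 (0.760), Msx1 (0.757) and Il6 (0.736) ran most like Kitl over the 47 units.

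Kit, its receptor, was highest in mast cells and melanocytes. Ctrl mast cells had 480 UMIs (1573 CPM, 1436 to 1721), with a UMI in 93.5% of 138 cells, and AD mast cells 241 UMIs (1729 CPM, 1517 to 1961), in 78.3% of 46 cells. On the log2 scale AD differed from Ctrl by 0.14 (−0.09 to 0.36), an interval that includes 0 and does not reach 2-fold in either direction. The direction turned as a mean over cells (−0.45) and with classes from marker UMIs (−0.31). Kit was the only member that passed the minimum in mast cells and was not called, where 5.89% of 1783 genes were called higher and 13.3% lower. Thinned to 1000 UMIs, the shares were 81.2% and 80.6%. Kit in melanocytes was 795 CPM (729 to 866) for Ctrl cells and 648 CPM (569 to 734) for AD cells (log2 −0.30, −0.52 to −0.08).

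A lower Kit level was also read in epithelial cells of the growing follicle. Ctrl hair matrix cells held 348 UMIs, or 26.8 CPM (24.1 to 29.8), in 20.4% of cells, where KCs of Ctrl stood at 2.16 CPM. The T cell background was 13.4 CPM and 4.51% of cells in Ctrl, and 26.4 CPM and 9.32% in AD. Dendritic cells of AD, led by Ccr7, Ccl5 and Ccl22, held 81 Kit UMIs, or 164 CPM (131 to 204), in 26 of 31 cells, against 1 UMI in 31 cells of Ctrl (4.06 CPM, 0.103 to 22.6). The ratio was 40.5-fold, with a counting interval of 7.07 to 1620. Macrophage cluster 15 stood at 145 CPM in AD (103 cells) and 41.1 CPM in Ctrl (461 cells). The dendritic cells were singled out after their values were seen. Mlph (0.797), Espn (0.787) and Plxnc1 (0.765) ran most like Kit over the 47 units.

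Melanocytes held most of the pigment gene UMIs of both libraries, from 84.9% (Tyrp1) to 87.9% (Tyr) in Ctrl and from 71.3% (Pmel) to 85.6% (Tyr) in AD. In Ctrl all 67 cells had Dct, 67 had Tyrp1, 61 had Pmel and 59 had Tyr. In AD the numbers were 91, 61, 38 and 46 of 113 cells. Dct, the tautomerase of the pathway, had 12074 UMIs in Ctrl (17985 CPM, 17666 to 18309) against 864 in AD (2293 CPM, 2143 to 2451), or −2.97 (−3.07 to −2.87) as a log2 ratio of AD over Ctrl. Tyr, the rate-limiting oxidase, had 1405 UMIs in Ctrl (2093 CPM) against 95 in AD (252 CPM), or −3.05 (−3.37 to −2.75). Tyrp1 had 4409 UMIs in Ctrl (6568 CPM) against 298 in AD (791 CPM), also −3.05 (−3.23 to −2.88). Of these 4 genes, Pmel was lowest in AD relative to Ctrl, with 5722 UMIs (8523 CPM) and 179 UMIs (475 CPM), or −4.17 (−4.39 to −3.95). A few bases of its exons overlap Cdk2 (34) and Dgka (105) on the other strand. A doublet score placed 26 Ctrl and 5 AD cells of this cluster among likely doublets, and without them the log2 ratio of Dct was −2.97 and that of Pmel −4.28. The ratios were smaller when cells were classed by their own marker UMIs, which left 57 Ctrl and 10 AD cells, at −1.54 for Dct, −1.54 for Tyrp1, −2.0 for Tyr and −1.95 for Pmel.

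The lower levels in AD were spread over the cells of the cluster. Counting Dct, Pmel, Tyrp1 and Tyr together, Ctrl cells held a median of 168 UMIs (lowest 4, highest 1348), and AD cells a median of 5 (lowest 0, highest 281). Relative to the depth of each cell, the medians were 29117 and 1690 CPM. At 10000 CPM or more stood 57 of 67 Ctrl cells and 11 of 113 AD cells, at 1000 to 10000 CPM 10 and 67, and below 1000 CPM 0 and 35. The ranges overlapped. The depth differed too, with medians of 6419 UMIs per Ctrl cell and 2820 per AD cell. Among cells with 2000 to 5000 UMIs, where median depths were 3150 and 3007.5, 17 Ctrl cells had a median of 50 pigment UMIs (11 to 168) and 72 AD cells a median of 5.5 (0 to 51), and the log2 ratios of CPM were −2.42 for Dct, −1.43 for Tyr, −2.31 for Tyrp1 and −2.84 for Pmel.

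**Figure D4:**
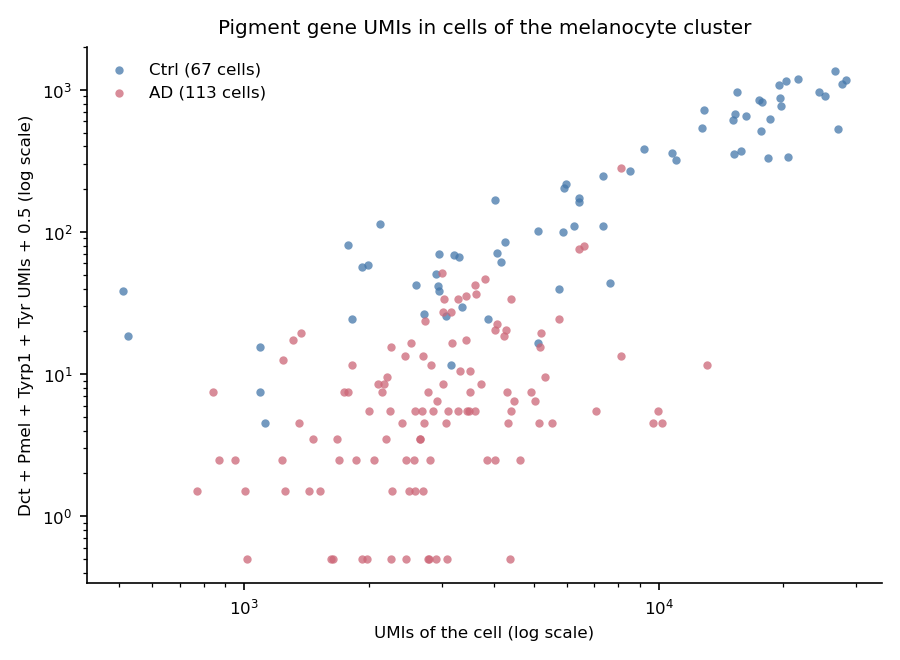
Each point is 1 cell of the melanocyte cluster, with its total UMIs on the x axis and its summed Dct, Pmel, Tyrp1 and Tyr UMIs plus 0.5 on the y axis (both log scales), blue for 67 Ctrl cells and red for 113 AD cells. At equal depth most AD cells lie below the Ctrl cells, and 11 AD cells reach 10000 CPM.

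The defining markers of the class were low in the AD cells as well. The 6 markers (Mlana, Slc45a2, Oca2, Gpr143, Slc24a5 and Trpm1) summed to 12163 CPM in Ctrl and 451 CPM in AD, and a cell held a median of 5 of them in Ctrl and 0 in AD. In the same cells, markers of Schwann cells summed to 503 and 762 CPM, and markers of dFBs to 581 and 1059 CPM. In the AD cells both sums exceeded that of the markers of the class itself. Counted by a gate instead (at least 3 of the 6 markers with a UMI), pigment cells numbered 60 of 11399 in Ctrl (0.526%, 0.402 to 0.677) and 11 of 8179 in AD (0.134%, 0.0672 to 0.241), so AD had more cells in the cluster and fewer in the gate. Of the gated cells, 49 in Ctrl and 9 in AD lay in the melanocyte cluster. A further 24 Ctrl and 0 AD barcodes met the gate but had been removed by the cell filter, 13 of them for more than 6000 genes.

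Receptors and regulators in the same cells did not move as one. The minimum for a call in melanocytes was passed by 6 members, Mc1r, Kit, Dct, Tyr, Tyrp1 and Pmel, and 5 of them, all but Kit, were called lower, against 21.3% of 4111 genes called lower and 16% called higher. Mc1r passed through its Ctrl level alone. The median log2 ratio over all genes tested was −0.11. The endothelin receptor Ednrb, on which Edn3 acts, went from 1673 to 401 CPM (log2 ratio −2.06), and Mitf from 1178 to 504 CPM (−1.22). Among 7 transcription factors of pigment cells past the minimum, 2 were called lower, Mitf and Lef1. Sox10 stood at 161 CPM in Ctrl against 209.7 in AD, Pax3 at 591 and 1123 CPM (0.92), Zeb2 at 544 and 730 CPM and Tfap2a at 125 and 249 CPM. Lef1, a partner of Wnt signalling, was called lower, at 65.5 and 2.65 CPM, with 44 UMIs and 1 UMI, and passed in Ctrl alone.

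Of 21 further melanosome and pigment cell genes, 17 passed the minimum, 11 of them in Ctrl alone, and 10 were called lower, 0 higher and 7 neither. Of the 10 lower genes, 8 passed in Ctrl alone, and Mlana and Slc24a5 passed in both libraries. The channel Trpm1 went from 4272 to 45.1 CPM, Mlana from 4977 to 207 CPM (−4.59), the transporter Oca2 from 590 to 13.3 CPM and the exchanger Slc24a5 from 1506 to 106 CPM. Gpnmb, a glycoprotein of late melanosomes, was at 1583 and 1465 CPM (−0.11), and the motor Myo5a at 1160 and 600 CPM.

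**Figure D5:**
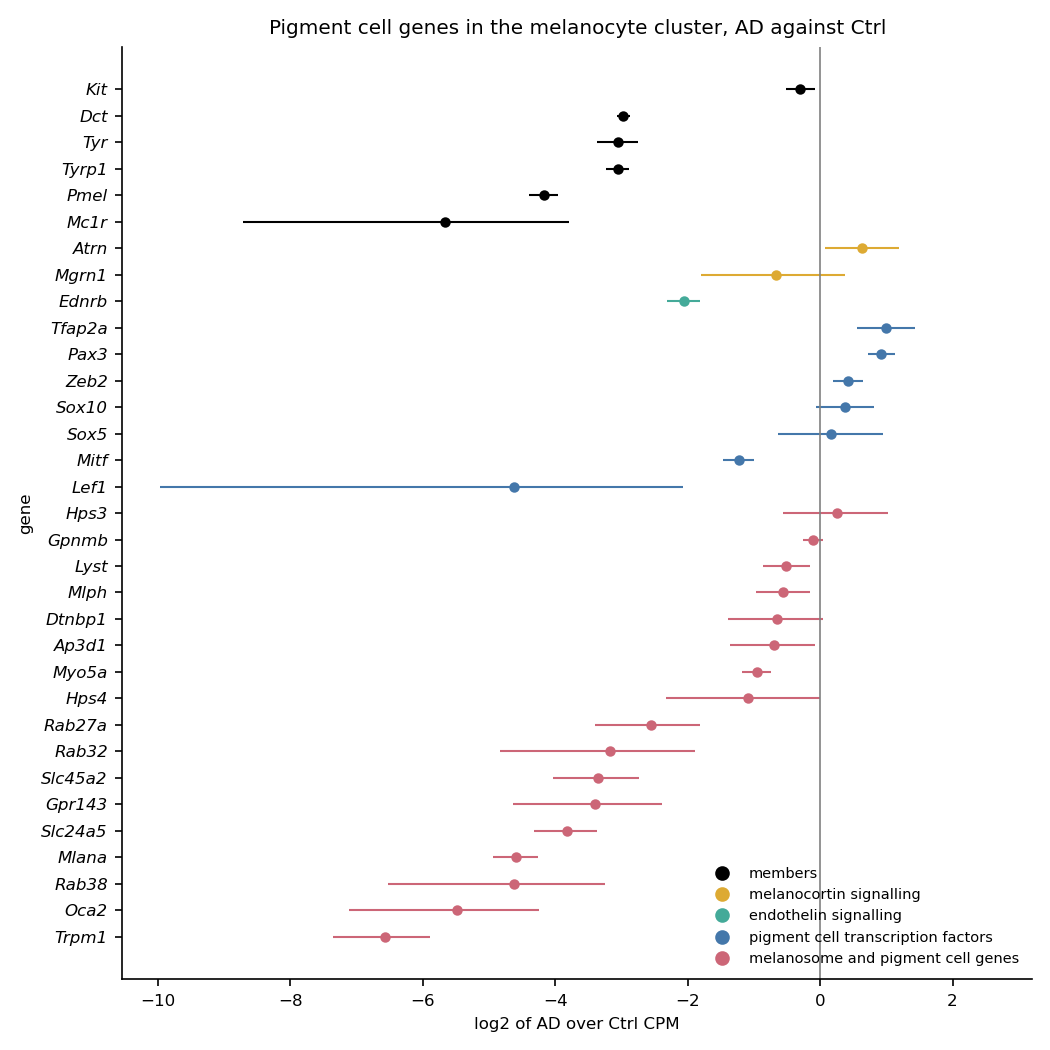
Log2 ratio of AD over Ctrl CPM in the melanocyte cluster for the members and the genes of the pigment lists that passed the minimum of 20 CPM and 30 UMIs, with 95% intervals for counting error. Mc1r (−5.66), Pmel (−4.17), Tyr, Tyrp1 and Dct lie to the left, Kit (−0.30) lies near 0 and Pax3 (0.92) to the right.

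Over the 47 units, Dct ran most like Pmel (0.969), Ptgds (0.959) and Syt4 (0.948), Tyr most like Slc45a2 (0.989), Syt4 (0.973) and Mlana (0.967), and Pmel most like Dct (0.969), Tyr (0.965) and Mlana (0.962). Tyrp1 ran most like Gpr37 (0.928), Fabp7 (0.928) and Pax3 (0.919).

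Outside melanocytes the pigment genes were read at a low level, and summed over those cells the Ctrl mix was near that of melanocytes. In all other cells and outside the gate, the 4 genes summed to 24.9 CPM in Ctrl and 4.62 CPM in AD, and Dct made up 51.0% of these UMIs in Ctrl, as against 51.1% in Ctrl melanocytes. T cells, which make none, held a Dct UMI at a share of 7.23% in the Ctrl library against 0.161% in AD. Ctrl hair matrix cells held 711 Dct UMIs (54.8 CPM) in 24.1% of cells, but their median depth was 15271.5 UMIs, and with every cell thinned to 1000 UMIs the share was 2.17%, against 2.72% in T cells. After thinning, the hair matrix share was thus no higher than that of T cells. Dct made up 64.0% (61.1 to 66.8) of the pigment gene UMIs of the Ctrl hair matrix, above its 51.1% in Ctrl melanocytes. Whether background accounts for all the hair matrix UMIs was not tested. KCs had Dct at 24.2 CPM in Ctrl against 12.5 in AD. A few cells carried much of it, since 70 of the 71 UMIs of AD KCs lay in 6 cells of cluster 12, and 11 cells of the sebaceous-gene cluster 29 (led by Elovl6, Scd1 and Fa2h) held 206 of the 515 UMIs of Ctrl KCs.

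Schwann cells departed further from that mix. Tyrp1 stood there at 133 CPM in Ctrl (100 UMIs), with a UMI in 19.5% of 215 cells, and at 70.3 CPM in AD (27 UMIs), in 15.8% of 95 cells. It made up 82.6% (74.7 to 88.9) of the pigment gene UMIs of Ctrl Schwann cells and 100% (87.2 to 100) of those of AD, against 18.7% and 20.8% in melanocytes. Dct had 13 and 0 UMIs in Schwann cells.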

How the data were processed

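Droplet libraries of dorsal skin, 1 Ctrl and 1 AD, were analysed from the count matrices that the authors deposited, which give UMIs per gene and barcode as raw numbers. The submitters' processing notes name Cell Ranger 3.1.0, Seurat 5.0 and mm10, whereas the header of the matrices names Cell Ranger 5.0.0. The matrices held 12598 Ctrl and 8778 AD barcodes (125184653 and 76106062 UMIs), of which 35 occurred in both. Of 33904 gene identifiers, 32475 matched GENCODE M21.

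Cells were kept if they had 200 to 6000 genes and no more than 10% mitochondrial UMIs. Both libraries were clustered together in scanpy 1.11.5 (Python 3.11.15, leidenalg 0.10.2, numpy 2.4.6, scipy 1.17.1, pandas 2.3.3): counts scaled to 10000 per cell, log-transformed, 2000 variable genes without the 9 genes, the melanocyte markers and the melanocortin, endothelin and melanosome lists, 30 principal components, 20 neighbours, Leiden resolution 1, seed 0. A cluster was named when at least 3 markers of a class were in 10% of its cells and at least 2-fold above the lower range of the clusters, with 10 CPM added. This rule was settled with marker tables and values of the 9 genes in view, and the rebuilt names may themselves differ from those of the study. Doublets were scored, 0.8% per 1000 cells were called (1039 Ctrl, 535 AD), and they were left in except in an alternative.

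Levels are CPM of summed UMIs. Ratios carry exact conditional intervals at 95%. Shares were also taken after 1 draw of 1000 UMIs per cell. The ratio step was tested on simulated counts. The members and lists were chosen with earlier results of these data known. Named were all 9 genes, the leading or changed genes of each list (inner sheath and shaft, matrix signalling, proliferation, follicle stem cell, papilla, melanocortin, endothelin, transcription factor and melanosome lists), and for each member the 3 genes most like it over clusters, in log2(CPM + 10). A few further list genes were named after their values were seen. Alternatives were other resolutions, filters, gates, cell means, doublets left out and each library clustered alone. Figures were drawn with matplotlib 3.10.9.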

Additional observations from a re-analysis of the deposited data

How the results depend on the processing

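With 1 library per condition, no alternative leaves out a replicate, and every interval covers counting error only. No paired analysis was possible because each group has a single library and no test was made. The agouti log2 ratio in dFBs (4.59) stayed above 0 throughout. It was 4.29 as a mean over cells, 4.25 with all barcodes, 4.24 at a resolution of 0.5, 4.26 at a resolution of 2, 4.21 with each library clustered alone and 4.20 with classes from each cell's marker UMIs. In 2 alternatives chosen after seeing the data, it was 3.17 for the whole mesenchyme and 2.05 without clusters 5 and 11. In the latter, AD dFBs stood at 27.1 CPM, near the 21.4 CPM of AD T cells, and background was not subtracted. At resolutions of 0.5 and 2, with all barcodes and with each library clustered alone, few or none of the AD cells of cluster 5 counted as dFBs. The Kitl ratio in KCs (0.94) was 0.76 with all barcodes and turned to −0.31 with the hair matrix added, also chosen after seeing the data, since hair matrix cells stand high in Kitl and are nearly all from Ctrl. It passed 2-fold as a mean over cells (1.05) and at a resolution of 2 (1.04). The Kitl ratio in dFBs (0.90) passed 2-fold with all barcodes (1.03), at resolutions of 0.5 (1.02) and 2 (1.01) and with classes from marker UMIs (1.05). The Kit ratio in mast cells (0.14) was −0.45 as a mean over cells and −0.31 with classes from marker UMIs, and the cause was not tested. The pigment gate held 1.11% of Ctrl and 0.367% of AD cells with at least 2 markers, and 0.395% and 0.0367% with at least 4. With classes from marker UMIs (57 and 10 cells), the melanocyte ratios were −1.54 for Dct, −1.54 for Tyrp1 and −1.95 for Pmel. With each library clustered alone, no AD melanocyte cluster was found, so no ratio was given. The 67 Ctrl and 113 AD melanocytes, and 31 dendritic cells in each library, limit what these levels can show.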
